A study of Mus musculus with 88 samples.

Results

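Nuclei of hippocampal neurons were compared 30 minutes after corticosterone or saline, as 4 corticosterone and 4 saline libraries of NeuN+ nuclei, 8 of the 88 samples of the series. They were chosen by their labels alone, and no measured value entered the choice. All mice were C57BL/6J males, 4 months old. The corticosterone group received a single intraperitoneal injection of a corticosterone:HBC complex at 2 mg/kg, and the control group received the same volume of saline. The methods do not say whether the saline also held HBC, the carrier of the hormone, so hormone and carrier cannot be told apart. Whole hippocampus was taken, nuclei were fixed and sorted by antibody to NeuN, a nuclear protein of mature neurons, and RNA inside the nuclei was sequenced without selection for polyadenylated transcripts. The same tissue also gave GFAP+ (astrocyte), PU.1+ (microglia) and NeuN-, GFAP-, PU.1- (3X-, enriched in oligodendrocytes) nuclei, with 4 corticosterone and 4 saline libraries of each.

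Corticosterone is the main glucocorticoid of the mouse, released by the adrenal cortex under stress. It enters cells and binds the glucocorticoid receptor (*Nr3c1*) and, with higher affinity, the mineralocorticoid receptor (*Nr3c2*), both abundant in the hippocampus. The bound receptors move into the nucleus, bind DNA at glucocorticoid response elements and raise or lower the transcription of nearby genes. Because counts of nuclear RNA include introns, they follow recent transcription more closely than counts of cytoplasmic mRNA.

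Deposited totals were 7271713 to 9913562 counts in the corticosterone libraries and 7184428 to 10013376 counts in the saline libraries. The sorted nuclei carried neuronal RNA: the summed level of 8 pan-neuronal markers was 5705 to 5896 CPM, counts scaled to library size, in corticosterone and 5664 to 5968 CPM in saline nuclei, against 749.0 to 2089 CPM in the other populations. Markers of other cell types were low and overlapped between the treatments. The summed level of 15 microglial markers was 4.00 to 4.88 CPM after corticosterone and 3.49 to 5.30 CPM after saline, and that of 14 oligodendrocyte markers was 217.1 to 225.7 CPM after corticosterone and 209.5 to 224.4 CPM after saline. The 14 astrocyte markers summed to 514.1 to 566.7 CPM after corticosterone and 462.8 to 536.9 CPM after saline, and their part in the results was not tested. Most of this sum was *Slc4a4* (482.3 to 533.2 CPM after corticosterone and 429.9 to 501.1 CPM after saline), while *Gfap* was at most 1.65 CPM in any library. The oligodendrocyte sum was mostly *Mbp* (106.9 to 115.1 CPM) and *St18* (83.5 to 105.1 CPM). The lists for excitatory and inhibitory neurons and for CA1, CA3 and dentate granule cells also overlapped between the groups, and only *Nrgn* and *Rgs14* on them were called, both lower after corticosterone. Fewer cells of a type and less RNA in each cell cannot be told apart in sorted pools. The labels do not say that each library came from its own mouse, so p-values measure only the spread between these libraries. On the first principal component all corticosterone libraries lay above all saline libraries, and corticosterone replicate 2 stood farthest out.

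Nuclear RNA of 261 genes differed between corticosterone and saline neurons, most of them by less than 1.5-fold. Of 12667 genes tested, 160 rose (1.26%) and 101 fell (0.797%), 2.06% in all, and 1439 had an unadjusted p under 0.05. A mean CPM is given ± SD and a log2 change ± SE, with n = 4 libraries for each group. Changes are given as log2 of corticosterone over saline from edgeR's quasi-likelihood test, and a gene was called at a Benjamini-Hochberg adjusted p under 0.05 over all genes tested. The median change was 0.27 for the genes that rose and -0.28 for those that fell, while the median over all genes was near 0 (-0.003). None of the risen genes reached a 2-fold change. The 2 fallen genes beyond it were *Gm24305*, a small nuclear RNA gene, and *Gm1821*, a processed pseudogene, both low and uneven among libraries of 1 group. *Gm24305* had 0.113, 0.143, 0.311 and 7.34 CPM in corticosterone and 19.5, 0.140, 15.8 and 0.212 CPM in saline nuclei, and *Gm1821* was under 2 CPM in every library. The 4 corticosterone and 4 saline libraries did not overlap in CPM for 128 of the risen and 79 of the fallen genes, against 5.87% of all genes tested. These genes were called from the same libraries, so their separation is in part a result of the calling. Protein-coding genes made up 158 of the risen and 96 of the fallen.

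Fewer genes were called under some settings. All 261 calls rest on the spread within the NeuN+ libraries. When the libraries of the 3 other populations were fitted with them and shared 1 estimate of the spread, 36 genes rose and 11 fell, and DESeq2 called 121 and 44. The fallen count was 58 without saline replicate 1, 60 without corticosterone replicate 2 and 62 without corticosterone replicate 4. Of 49 calls named in this comparison, 30 were lost in the fit of 32 libraries and 17 of 47 with DESeq2. Called whichever library was left out were 85 of the risen and 36 of the fallen genes.

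**Figure D1:**
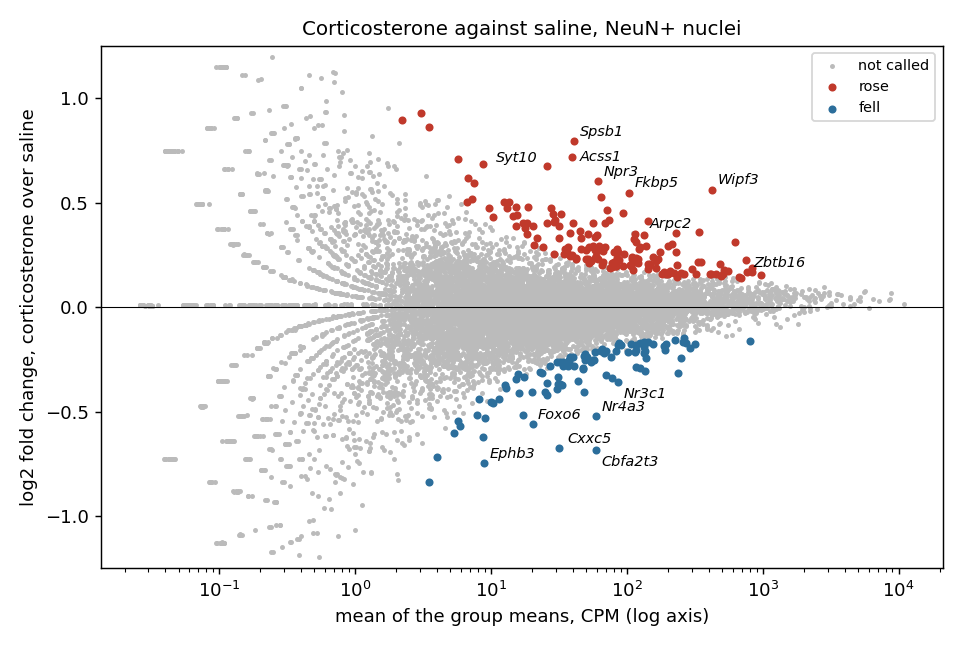
Log2 fold change of corticosterone over saline (vertical axis) against the mean of both group means in CPM (horizontal axis, log scale), 1 point for each gene tested in NeuN+ nuclei. Red points are the genes that rose and blue points those that fell, and 495 genes beyond 1.2 on the vertical axis, 2 of them called, are not drawn. Most called genes lie within 0.5 of no change, and *Wipf3* lies at 0.56.

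The largest rises were in genes of signal control, metabolism, secretion and the actin cytoskeleton. The 12 largest rises and 12 largest falls named here were taken among called genes with at least 50 counts on average in the higher group and with groups that did not overlap, so their separation is part of the choice. *Spsb1*, which encodes an adaptor that brings proteins to a ubiquitin ligase, had 48.3, 52.3, 50.4 and 55.6 CPM in corticosterone nuclei, against 30.7, 31.6, 32.2 and 24.9 CPM in saline nuclei (log2 change 0.79 ± 0.07, adjusted p = 1.52e-12). *Wipf3*, a WASP-interacting protein that acts on actin assembly, had 497, 541, 480.1 and 508 CPM in corticosterone nuclei, against 347, 329, 374 and 320.1 CPM in saline nuclei (log2 change 0.56 ± 0.04, adjusted p = 3.89e-14). Its adjusted p was the smallest of all genes tested, with little spread within either group. *Acss1*, the mitochondrial enzyme that makes acetyl-CoA from acetate, had 47.0, 54.4, 44.0 and 51.0 CPM in corticosterone nuclei, against 27.7, 30.6, 32.4 and 28.0 CPM in saline nuclei (log2 change 0.72 ± 0.07, adjusted p = 2.68e-11). *Npr3*, the clearance receptor for natriuretic peptides, had 71.1, 81.7, 69.3 and 73.4 CPM in corticosterone nuclei, against 46.7, 48.9, 46.5 and 51.5 CPM in saline nuclei (log2 change 0.60 ± 0.06, adjusted p = 2.68e-11). *Syt10*, a synaptotagmin of regulated secretion, had 32.3, 31.4, 33.3 and 30.2 CPM in corticosterone nuclei, against 14.9, 16.5, 25.8 and 21.1 CPM in saline nuclei (log2 change 0.68 ± 0.09, adjusted p = 6.73e-07). Its corticosterone libraries lay close together while its saline libraries spread widely.

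The other rises so named included *Adamts1*, a secreted protease that cuts proteoglycans (7.11 ± 0.568 CPM after corticosterone against 4.37 ± 0.361 CPM after saline, log2 change 0.71 ± 0.15, adjusted p = 0.00193), and *Lsm11*, a protein of the machinery that trims histone mRNA (10.7 ± 1.06 CPM after corticosterone against 6.69 ± 1.118 CPM after saline, log2 change 0.69 ± 0.13, adjusted p = 2.84e-04). *Nkd2*, an inhibitor of Wnt signalling, rose by 0.62 (adjusted p = 0.00924), with corticosterone replicate 3 just above the highest saline library. *Olfml2b*, an extracellular matrix protein, averaged 76.4 ± 8.16 CPM after corticosterone against 52.7 ± 3.80 CPM after saline (log2 change 0.53 ± 0.06, adjusted p = 8.85e-09). *Aph1b*, a subunit of gamma-secretase, rose by 0.51 (adjusted p = 9.65e-04) and *Arrdc4*, an alpha-arrestin, by 0.52 (adjusted p = 0.0268). The call of *Arrdc4* was lost without saline replicate 1 or 4 or corticosterone replicate 2 or 4 (adjusted p = 0.163 at most), and that of *Nkd2* without corticosterone replicate 4 (adjusted p = 0.0968).

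The largest falls included several regulators of transcription. *Cbfa2t3*, a corepressor of the ETO family, had 51.8, 41.7, 48.2 and 39.8 CPM in corticosterone nuclei, against 81.3, 73.1, 68.1 and 70.5 CPM in saline nuclei (log2 change -0.68 ± 0.06, adjusted p = 1.84e-11). *Cxxc5*, a zinc finger protein that binds unmethylated CpG and restrains Wnt signalling, had 25.8, 25.1, 25.3 and 20.6 CPM in corticosterone nuclei, against 45.1, 35.3, 34.6 and 39.7 CPM in saline nuclei (log2 change -0.67 ± 0.08, adjusted p = 8.85e-09). *Foxo6*, a forkhead transcription factor of the hippocampus, had 16.4, 12.6, 17.0 and 18.6 CPM in corticosterone nuclei, against 24.6, 25.6, 21.4 and 25.1 CPM in saline nuclei (log2 change -0.56 ± 0.09, adjusted p = 2.35e-05). In *Cbfa2t3*, corticosterone replicates 2 and 4 were the lowest, and in *Cxxc5* replicate 4. *Ephb3*, a receptor tyrosine kinase for ephrin-B ligands, had the largest of these falls (7.91, 5.86, 6.85 and 5.62 CPM in corticosterone nuclei, against 12.3, 11.3, 10.9 and 10.1 CPM in saline nuclei, log2 change -0.75 ± 0.12, adjusted p = 4.78e-05). *Nr1d1*, the clock repressor REV-ERB alpha, fell by 0.44 on the log2 scale (adjusted p = 0.0211), and its body overlaps *Thra* on the other strand, which had many more counts. Whether reads were counted by strand is not stated, so reads of such pairs cannot be told apart here. Its call was lost without saline replicate 2 or 4 or corticosterone replicate 1 or 2 (adjusted p = 0.142 at most).

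*Midn*, which directs nuclear proteins to the proteasome, averaged 4.21 ± 1.02 CPM after corticosterone against 6.52 ± 0.672 CPM after saline (log2 change -0.60 ± 0.16, adjusted p = 0.0272). *Cdc42ep4*, an effector of the GTPase CDC42, averaged 6.91 ± 1.38 CPM after corticosterone against 10.5 ± 0.522 CPM after saline (log2 change -0.62 ± 0.13, adjusted p = 0.00159), and *Mapk7*, the kinase ERK5, 8.33 ± 0.850 CPM after corticosterone against 11.5 ± 1.49 CPM after saline (log2 change -0.45 ± 0.12, adjusted p = 0.0199). The remaining falls by the rule were *Rasl10a*, a Ras-like GTPase (-0.57, adjusted p = 0.0304), *Apcdd1*, a Wnt inhibitor (-0.53, adjusted p = 0.00509), *Fbln2*, a matrix protein (-0.51, adjusted p = 2.28e-04), and the pseudogene *Zfp862-ps* (-0.46, adjusted p = 0.00924). The call of *Midn* was lost without saline replicate 1, 2 or 4 or corticosterone replicate 2 or 4 (adjusted p = 0.129 at most), that of *Mapk7* without saline replicate 1 or corticosterone replicate 2 (0.139 at most), that of *Rasl10a* without saline replicate 1 or 2 or corticosterone replicate 3 or 4 (0.259 at most), and that of *Zfp862-ps* without replicate 4 of either group (0.0684 at most). *Rasl10a* also lies opposite a gene with more counts, *Gas2l1* (log2 change -0.23, adjusted p = 0.389). Of the largest rises and falls, DESeq2 did not call *Nkd2* (adjusted p = 0.0502), *Arrdc4* (0.124), *Nr1d1* (0.111), *Mapk7* (0.1122), *Rasl10a* (0.149), *Apcdd1* (0.0553) and *Zfp862-ps* (0.0863). It gave no adjusted p for *Midn*, which was thus not called either. The fit of 32 libraries did not call *Apcdd1* (adjusted p = 0.8003), *Arrdc4* (0.282), *Fkbp5* (0.298), *Foxo6* (0.076), *Mapk7* (0.154), *Midn* (0.154), *Nkd2* (0.186), *Nr1d1* (0.258) and *Rasl10a* (0.156). Among the genes described further on, *Irs2*, *Btg3*, *Glul* and *Fdft1* overlap genes with more counts on the other strand (*9530052E02Rik*, *Cxadr*, *Teddm2* and *Ctsb*), and their counts are uncertain in the same way.

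**Figure D2:**
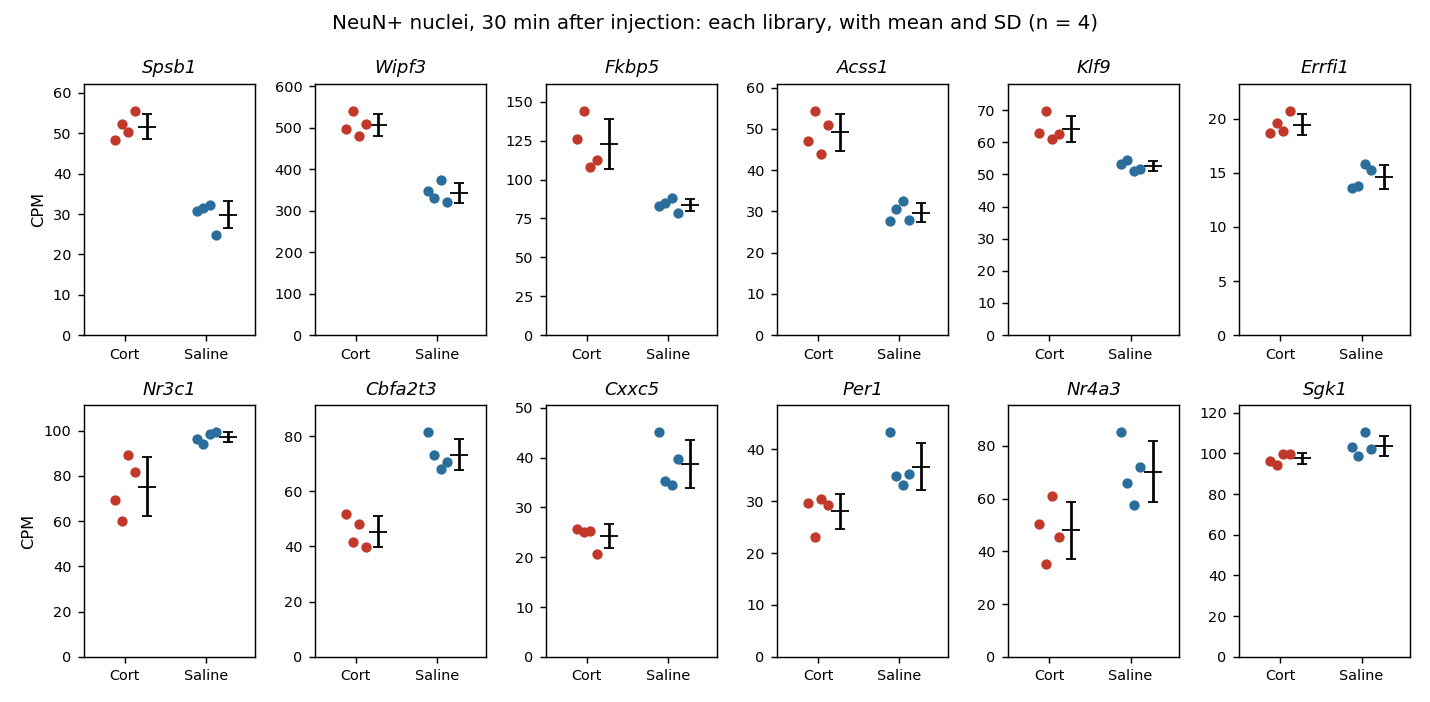
CPM (vertical axes, from 0) of 12 genes in each corticosterone (Cort, red, left) and saline (blue, right) library of NeuN+ nuclei, with the mean and SD of 4 libraries beside the points. The groups are apart in *Spsb1*, *Wipf3*, *Fkbp5*, *Acss1*, *Klf9*, *Errfi1*, *Nr3c1*, *Cbfa2t3*, *Cxxc5* and *Per1*, and overlap in *Nr4a3* and *Sgk1*.

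The receptor itself fell. *Nr3c1* had 69.4, 60.1, 89.4 and 81.8 CPM in corticosterone nuclei, against 96.4, 94.1, 98.4 and 99.2 CPM in saline nuclei (log2 change -0.36 ± 0.06, adjusted p = 1.14e-04). All corticosterone libraries were lower than the saline libraries, but they spread widely, with replicates 3 and 4 nearer to saline than replicates 1 and 2. DESeq2 did not call it (adjusted p = 0.117), nor did the fit of 32 libraries (adjusted p = 0.268). *Nr3c2*, the mineralocorticoid receptor, averaged 1191 ± 53.1 CPM after corticosterone against 1199.8 ± 61.3 CPM after saline and did not pass the test (log2 change -0.01 ± 0.04, adjusted p = 0.96). Of 19 receptors, cochaperones and cofactors tested, *Fkbp5* rose and *Nr3c1* fell (5.26% each, against 1.26% of all genes risen and 0.797% fallen). The other 17, among them the HSP90 genes *Hsp90aa1* (0.10) and *Hsp90ab1* (0.11) and the coactivator *Ncoa1* (0.06), did not pass.

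Several known glucocorticoid response genes rose. Of 40 on the list, 23 were tested, of which 6 rose (26.1%, against 1.26% of all genes) and 1 fell (4.35%, against 0.797%), with a median log2 change of 0.17, against -0.003 over all genes. DESeq2 called 4 members as risen and 1 as fallen. Like the other lists, this one was drawn up with earlier results of these data known, so its share is a description and not a test. *Fkbp5*, a cochaperone that lowers the affinity of the receptor for its hormone, had 126, 144, 108 and 113 CPM in corticosterone nuclei, against 82.8, 84.7, 88.1 and 78.5 CPM in saline nuclei (log2 change 0.55 ± 0.06, adjusted p = 6.72e-10). Corticosterone replicates 1 and 2 were the highest. *Klf9*, a transcription factor induced directly by the receptor, had 62.8, 69.9, 61.1 and 62.6 CPM in corticosterone nuclei, against 53.3, 54.3, 51.2 and 51.7 CPM in saline nuclei (log2 change 0.28 ± 0.06, adjusted p = 8.50e-04). *Errfi1*, an inhibitor of the EGF receptor, had 18.6, 19.6, 18.9 and 20.8 CPM in corticosterone nuclei, against 13.6, 13.8, 15.9 and 15.3 CPM in saline nuclei (log2 change 0.40 ± 0.09, adjusted p = 0.0032). Groups were apart for all 3. *Zbtb16*, a zinc finger repressor, averaged 814 ± 10.7 CPM after corticosterone against 726 ± 37.0 CPM after saline (log2 change 0.17 ± 0.04, adjusted p = 0.00709). *Fam107a*, an actin-bundling protein induced by stress, averaged 11.2 ± 1.14 CPM after corticosterone against 8.03 ± 0.371 CPM after saline (log2 change 0.48 ± 0.12, adjusted p = 0.0106), and *Irs2*, an adaptor of the insulin receptor, 31.5 ± 3.06 CPM after corticosterone against 26.4 ± 1.799 CPM after saline (log2 change 0.26 ± 0.07, adjusted p = 0.0493). The groups overlapped in *Irs2*, and its call was lost without any 1 saline library or corticosterone replicate 1, 3 or 4 (adjusted p = 0.266 at most). That of *Fam107a* was lost without corticosterone replicate 4 (adjusted p = 0.0671). DESeq2 called neither *Irs2* (adjusted p = 0.187) nor *Fam107a* (0.0707). In the fit of 32 libraries *Fkbp5* (adjusted p = 0.298), *Klf9* (0.450) and *Errfi1* (0.180) were not called in NeuN+ nuclei.

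Other members of the list showed no call. *Sgk1*, a kinase that regulates ion channels and is a classic receptor target, had 96.4, 94.4, 99.6 and 99.7 CPM in corticosterone nuclei, against 103, 98.8, 110.4 and 102 CPM in saline nuclei (log2 change -0.09 ± 0.05, adjusted p = 0.492). The groups overlapped and the corticosterone mean was the lower. *Glul*, glutamine synthetase, averaged 5.04 ± 0.988 CPM after corticosterone against 4.98 ± 0.287 CPM after saline (log2 change 0.01 ± 0.16, adjusted p = 0.999). *Ddit4*, an inhibitor of mTOR, had 0.904, 1.00, 1.246 and 1.03 CPM in corticosterone nuclei, against 1.72, 1.96, 1.54 and 1.38 CPM in saline nuclei, and *Mt1*, a metallothionein, had 0.565, 0.714, 1.04 and 0.803 CPM in corticosterone nuclei, against 0.368, 0.419, 0.309 and 0.530 CPM in saline nuclei. Neither passed (adjusted p = 0.418 and 0.425), although the groups did not overlap in either, and such levels rest on few counts. *Tsc22d3*, which encodes GILZ, was below the level filter. It had 16, 10, 9 and 13 counts in corticosterone and 3, 7, 8 and 5 counts in saline nuclei, with an adjusted p of 0.187 when all genes with a count were tested (log2 change 1.06 ± 0.36, SE).

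*Per1*, a clock repressor that the receptor induces in many tissues, moved the other way. It had 29.6, 23.0, 30.3 and 29.3 CPM in corticosterone nuclei, against 43.2, 34.9, 33.1 and 35.3 CPM in saline nuclei (log2 change -0.37 ± 0.08, adjusted p = 0.00177), with replicate 2 the lowest of the corticosterone libraries and no overlap between groups. Of 21 circadian clock genes tested, *Per1* and *Nr1d1* fell and *Hlf*, an activator of the PAR bZIP family, rose (112 ± 7.01 CPM after corticosterone against 97.7 ± 8.64 CPM after saline, log2 change 0.20 ± 0.05, adjusted p = 0.0208). That is 9.52% fallen, against 0.797% of all genes, and 4.76% risen, against 1.26%. The groups overlapped in *Hlf*, whose call was lost without saline replicate 1 or 4 or corticosterone replicate 3 (adjusted p = 0.163 at most). DESeq2 did not call *Hlf* (adjusted p = 0.0764). *Per2* did not pass the test (54.4 ± 7.84 CPM after corticosterone against 54.2 ± 4.22 CPM after saline, log2 change 0.01 ± 0.07, adjusted p = 0.969).

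The promoters of the responding genes were searched for the receptor's binding site, an inverted repeat of a short element with a spacer. Promoters here are the stretch of 250 bases before to 50 bases after each transcription start, from RefSeq on GRCm38.p6, and 194 of the 261 called genes were matched by symbol. The element GNACA followed, after any 3 bases, by its reverse complement TGTNC was in 3 of 175 promoters of risen genes (1.71%), in none of 104 promoters of fallen genes, in 0.321% of promoters of all tested genes and in 0.475% of all 32851 promoters. The 3 promoters belong to 2 genes, *Fam107a* (a pair of starts 2 bases apart) and *Ptpdc1*, a phosphatase of cilia. A stricter site, AGAACA and TGTTCT with any 3 bases between them, overlaps the first and was in no promoter of a called gene and in 0.00913% of all promoters. The element GNACA alone, which the longer sites contain, was in 84.0% of promoters of risen genes and in 73.1% of those of fallen genes, against 81.1% of tested genes, counting either strand.

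The first pair of promoters shown here are those of the risen genes that hold the longer site, with the site in capitals. *Sgk1* and *Mt1* also hold it and were not called, and *Fkbp5* and *Wipf3*, called with large changes, have no match in this window.
Fam107a promoter, chr14:8309730-8310029, minus strand: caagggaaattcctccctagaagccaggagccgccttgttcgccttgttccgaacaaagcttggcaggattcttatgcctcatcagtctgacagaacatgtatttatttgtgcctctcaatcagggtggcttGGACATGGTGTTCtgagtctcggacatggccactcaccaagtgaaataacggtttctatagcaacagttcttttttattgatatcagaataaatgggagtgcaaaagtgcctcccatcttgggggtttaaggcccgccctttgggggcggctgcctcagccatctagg
Ptpdc1 promoter, chr13:48593342-48593641, minus strand: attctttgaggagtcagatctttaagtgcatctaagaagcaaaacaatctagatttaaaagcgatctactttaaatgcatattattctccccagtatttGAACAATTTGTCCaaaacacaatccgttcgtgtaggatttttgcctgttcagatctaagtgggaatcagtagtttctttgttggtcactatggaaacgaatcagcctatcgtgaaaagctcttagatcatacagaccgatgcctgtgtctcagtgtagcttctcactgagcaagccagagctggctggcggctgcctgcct
Sgk1 promoter, chr10:21993640-21993939, plus strand: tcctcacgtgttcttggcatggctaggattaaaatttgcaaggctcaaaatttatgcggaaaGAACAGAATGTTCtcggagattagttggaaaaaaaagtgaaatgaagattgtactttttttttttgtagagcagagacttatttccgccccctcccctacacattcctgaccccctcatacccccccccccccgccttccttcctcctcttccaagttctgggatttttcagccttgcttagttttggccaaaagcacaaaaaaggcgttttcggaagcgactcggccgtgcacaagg
Mt1 promoter, chr8:94178839-94179138, plus strand: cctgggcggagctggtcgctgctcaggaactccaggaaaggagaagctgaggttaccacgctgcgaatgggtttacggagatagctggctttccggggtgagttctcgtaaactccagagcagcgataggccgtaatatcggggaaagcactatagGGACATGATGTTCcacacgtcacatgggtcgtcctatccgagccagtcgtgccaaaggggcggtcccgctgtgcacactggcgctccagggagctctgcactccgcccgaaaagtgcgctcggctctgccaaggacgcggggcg
Fkbp5 promoter, chr17:28486100-28486399, minus strand: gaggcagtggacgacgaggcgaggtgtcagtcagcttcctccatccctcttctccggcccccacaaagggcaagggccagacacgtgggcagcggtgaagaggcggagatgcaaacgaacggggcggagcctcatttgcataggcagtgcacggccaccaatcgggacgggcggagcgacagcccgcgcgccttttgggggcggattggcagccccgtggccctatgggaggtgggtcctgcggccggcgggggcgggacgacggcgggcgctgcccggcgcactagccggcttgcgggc
Wipf3 promoter, chr6:54429436-54429735, plus strand: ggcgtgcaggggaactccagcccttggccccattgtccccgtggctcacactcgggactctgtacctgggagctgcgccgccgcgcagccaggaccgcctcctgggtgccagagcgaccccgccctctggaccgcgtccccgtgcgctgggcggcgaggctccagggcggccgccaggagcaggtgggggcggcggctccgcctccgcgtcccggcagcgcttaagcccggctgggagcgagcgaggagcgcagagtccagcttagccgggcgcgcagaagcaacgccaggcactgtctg
The capitals begin 118 bases before the start in *Fam107a*, 151 in *Ptpdc1*, 188 in *Sgk1* and 94 in *Mt1*. The full site in *Sgk1* stood in a gene with a log2 change of -0.09, and that in *Ptpdc1* in a gene that averaged 43.0 ± 1.21 CPM after corticosterone against 36.2 ± 1.98 CPM after saline (log2 change 0.25 ± 0.06, adjusted p = 0.0142).

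**Figure D3:**
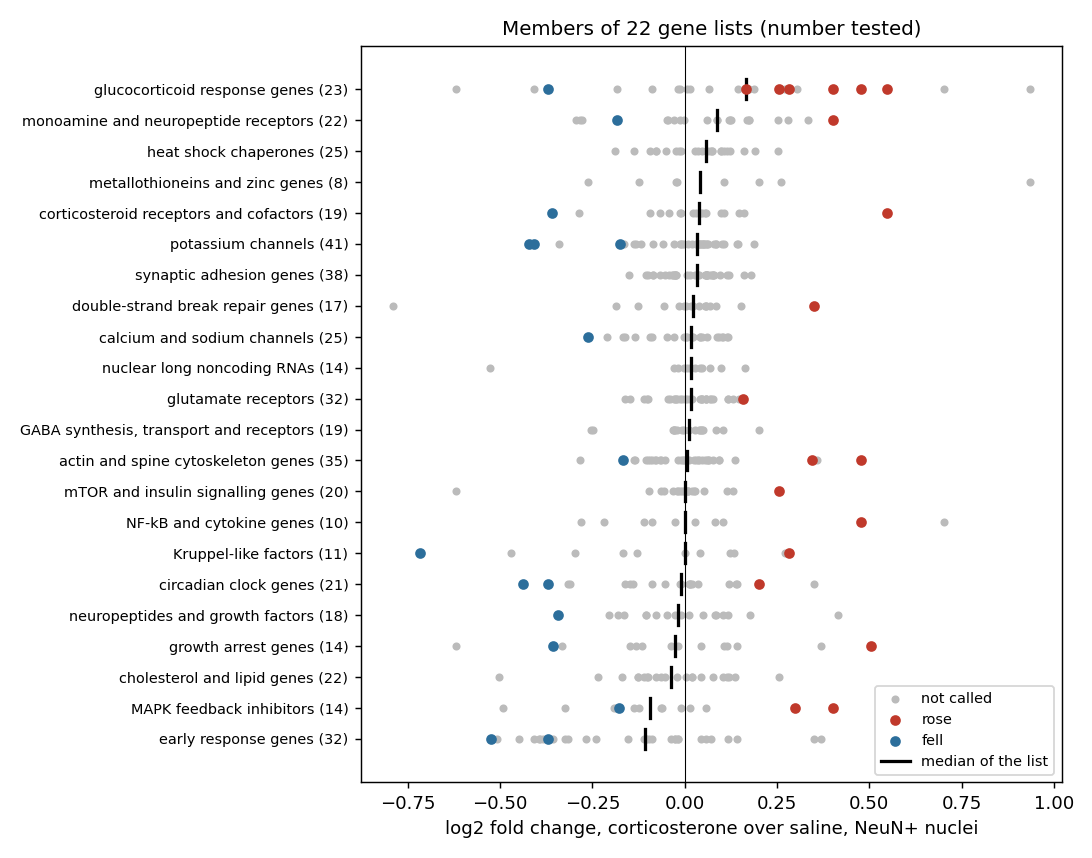
Log2 fold change of corticosterone over saline in NeuN+ nuclei (horizontal axis) for the tested members of 22 gene lists (rows, number tested in parentheses). Red points rose, blue points fell, grey points were not called, and the bar is the median of the list. The glucocorticoid response genes have the highest median (0.17) and the early response genes the lowest (-0.11).

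Early response genes, the transcription factors and effectors that neuronal activity switches on within minutes, mostly had lower means after corticosterone. Of 32 tested, none rose by edgeR or DESeq2 (1 higher at an unadjusted p under 0.05) and *Nr4a3* and *Per1* fell (6.25%, against 0.797% of all genes), 25 had a negative change, and the median was -0.11. *Nr4a3*, an orphan nuclear receptor, had 50.5, 35.3, 61.2 and 45.3 CPM in corticosterone nuclei, against 85.1, 66.1, 57.5 and 72.1 CPM in saline nuclei (log2 change -0.52 ± 0.08, adjusted p = 3e-05). Saline replicate 3 lay within the range of the corticosterone libraries, so the groups overlapped, and DESeq2 did not call it (adjusted p = 0.191). *Nr4a2*, a close relative, averaged 9.87 ± 2.03 CPM after corticosterone against 13.2 ± 1.47 CPM after saline and missed the threshold (log2 change -0.39 ± 0.11, adjusted p = 0.0563), as did *1700016P03Rik*, the host of miR-212 and miR-132 (-0.45, adjusted p = 0.0656). *Arc*, a regulator of AMPA receptor trafficking, did not change detectably (8.57 ± 1.65 CPM after corticosterone against 9.18 ± 1.29 CPM after saline, log2 change -0.09 ± 0.13, adjusted p = 0.869), nor did *Npas4* (-0.02, adjusted p = 0.99). *Bdnf* was -0.11 (adjusted p = 0.621).

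Genes of the actin cytoskeleton were among the risen genes. On the list of 35 actin and spine genes *Arpc2*, a subunit of the ARP2/3 complex, rose (144, 158, 156 and 139 CPM in corticosterone nuclei, against 122, 113, 124 and 111 CPM in saline nuclei, log2 change 0.35 ± 0.05, adjusted p = 1.14e-06), as did *Fam107a*, while *Shank3*, the postsynaptic scaffold, fell (134 ± 3.41 CPM after corticosterone against 151 ± 3.14 CPM after saline, log2 change -0.17 ± 0.04, adjusted p = 0.0211), and the median of the list was 0.01. That is 5.71% risen, against 1.26% of all genes, and 2.86% fallen, against 0.797%. The call of *Shank3* was lost without saline replicate 1 or 2 or corticosterone replicate 2, 3 or 4 (adjusted p = 0.0772 at most). Outside the list *Cdc42ep4*, the effector of CDC42 named above, fell (-0.62). Several further regulators of the cytoskeleton outside the list had risen. They are named here after their values were seen, so their direction is part of the choice. They include *Cotl1*, a binder of filamentous actin (35.7 ± 3.03 CPM after corticosterone against 27.2 ± 1.98 CPM after saline, log2 change 0.39 ± 0.07, adjusted p = 3.39e-04), *Cald1*, caldesmon (0.35), *Cnn3*, a calponin (0.39), *Pls3*, an actin bundler (0.22), *Abi1*, of the WAVE complex (0.17), *Actr3b*, an ARP3 homologue (0.17), and *Mrtfa*, the actin-sensing coactivator of SRF (383 ± 30.7 CPM after corticosterone against 299 ± 10.6 CPM after saline, log2 change 0.36 ± 0.04, adjusted p = 6.07e-08).

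Metabolic genes chosen in the same way, after their values were seen, rose beside *Acss1*. *Pygb*, brain glycogen phosphorylase, averaged 76.4 ± 6.56 CPM after corticosterone against 62.4 ± 1.72 CPM after saline (log2 change 0.29 ± 0.06, adjusted p = 5.37e-04), and *Dlat*, a subunit of pyruvate dehydrogenase, 49.9 ± 0.544 CPM after corticosterone against 41.2 ± 0.725 CPM after saline (log2 change 0.28 ± 0.06, adjusted p = 0.00198). *Pfkfb4*, a regulator of glycolysis, rose by 0.33, the mitochondrial carrier *Slc25a25* by 0.34, *Dgat2*, of triglyceride synthesis, by 0.37 and *Elovl2*, of fatty acid elongation, by 0.47. None of 22 cholesterol and lipid genes on the list was called by edgeR or DESeq2 (3 at an unadjusted p under 0.05), *Fdft1* having the smallest adjusted p (0.25, adjusted p = 0.0643).

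Most of the synaptic and excitability genes named here fell, by small amounts. Of 41 potassium channel genes on the list 3 fell (7.32%, against 0.797% of all genes) and none rose by edgeR or DESeq2 (5 higher at an unadjusted p under 0.05). The median of the list was 0.03, with 25 changes positive and 16 negative. Outside the list, the potassium channel gene *Kcng2* rose by 0.28 (adjusted p = 4.17e-05) and was called by DESeq2 as well. *Kcng1*, a modulatory subunit, had 22.3, 21.9, 21.8 and 23.1 CPM in corticosterone nuclei, against 30.1, 27.2, 27.1 and 34.4 CPM in saline nuclei (log2 change -0.42 ± 0.08, adjusted p = 2.84e-04), *Kcnj4*, an inward rectifier, had 20.8, 19.7, 23.98 and 21.0 CPM in corticosterone nuclei, against 29.0, 28.9, 25.8 and 30.5 CPM in saline nuclei (log2 change -0.41 ± 0.08, adjusted p = 4.49e-04), and the channel-interacting *Kcnip3* fell by 0.18 on the log2 scale (adjusted p = 0.0222). Groups did not overlap in any of the 3, and the call of *Kcnip3* was lost without saline replicate 1 or 4 or corticosterone replicate 2 or 4 (adjusted p = 0.203 at most). DESeq2 did not call *Kcnip3* (adjusted p = 0.0605). Of 19 GABA genes none was called by edgeR or DESeq2 (3 at an unadjusted p under 0.05), the nearest being *Gabrb1* (0.10, adjusted p = 0.163). Among 22 monoamine and neuropeptide receptors *Htr2a*, a serotonin receptor, rose (20.7 ± 1.39 CPM after corticosterone against 15.8 ± 1.73 CPM after saline, log2 change 0.40 ± 0.09, adjusted p = 0.00328) and *Chrm1*, a muscarinic receptor, fell (84.1 ± 3.14 CPM after corticosterone against 95.6 ± 3.63 CPM after saline, log2 change -0.18 ± 0.05, adjusted p = 0.0258). Each is 4.55% of the list, against 1.26% risen and 0.797% fallen of all genes. The call of *Chrm1* was lost without saline replicate 1, 3 or 4 or corticosterone replicate 2 or 4 (adjusted p = 0.122 at most). DESeq2 did not call *Chrm1* (adjusted p = 0.0784).

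None of 38 synaptic adhesion genes was called by edgeR or DESeq2 (7 at an unadjusted p under 0.05), with *Tenm1* nearest (0.12, adjusted p = 0.135). Further synaptic genes that fell, named after their values were seen, were *Nrgn*, a calmodulin-binding protein of dendrites (65.0 ± 4.96 CPM after corticosterone against 74.9 ± 3.82 CPM after saline, log2 change -0.21 ± 0.06, adjusted p = 0.0243), *Dagla*, which makes the endocannabinoid 2-arachidonoylglycerol (-0.20), *Doc2b*, a calcium sensor of vesicle release (-0.40), *Baiap2* (-0.17), *Nptxr* (-0.18), and the Nogo receptors *Rtn4r* (-0.34) and *Rtn4rl2* (-0.31). Their direction is part of the choice.

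The remaining lists held 1 to 3 called genes each or none, and with so few members 1 call alone puts a list above the 1.26% of all genes that rose or the 0.797% that fell. *Il6ra*, the interleukin 6 receptor, rose among 10 NF-kB and cytokine genes (22.04, 23.0, 20.9 and 20.5 CPM in corticosterone nuclei, against 15.4, 16.3, 15.4 and 14.8 CPM in saline nuclei, log2 change 0.48 ± 0.08, adjusted p = 1.29e-04). *Parp1*, a sensor of DNA breaks, rose among 17 repair genes (133, 137, 122 and 124 CPM in corticosterone nuclei, against 99.8, 104, 106 and 95.3 CPM in saline nuclei, log2 change 0.35 ± 0.05, adjusted p = 8.87e-07). Both were apart between groups. *Dusp14*, a phosphatase of MAP kinases, rose by 0.30 and *Spred2*, an inhibitor of Ras signalling, fell by 0.18 on the log2 scale among 14 MAPK feedback genes. *Ccnd2*, cyclin D2, averaged 38.0 ± 1.91 CPM after corticosterone against 48.8 ± 2.65 CPM after saline (log2 change -0.36 ± 0.06, adjusted p = 1.02e-04), and *Btg3*, an antiproliferative gene, 14.4 ± 1.77 CPM after corticosterone against 10.3 ± 2.30 CPM after saline (log2 change 0.50 ± 0.11, adjusted p = 0.00529). *Klf10* was at 3.005 ± 0.940 CPM after corticosterone against 4.99 ± 1.32 CPM after saline (log2 change -0.72 ± 0.20, adjusted p = 0.0462). *Cck*, a neuropeptide, fell by 0.34 on the log2 scale (adjusted p = 0.0448), a call lost without saline replicate 1, 2 or 4 or corticosterone replicate 1, 3 or 4 (0.176 at most). Single libraries also decided *Klf10* (saline replicate 1, 2 or 4 or corticosterone replicate 2, 3 or 4, adjusted p = 0.287 at most), *Dusp14* (saline replicate 2 or 4 or corticosterone replicate 1, 2 or 3, 0.117 at most), *Spred2* (saline replicate 1 or corticosterone replicate 2 or 4, 0.128 at most) and *Btg3* (replicate 4 of either group, 0.0803 at most). DESeq2 did not call *Cck* (adjusted p = 0.218) or *Dusp14* (0.141), and it gave no adjusted p for *Klf10*, which was thus not called either.

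No heat shock gene of 25, no metallothionein or zinc gene of 8 and no nuclear long noncoding RNA of 14 was called by edgeR or DESeq2. At an unadjusted p under 0.05 stood 3 heat shock genes, 3 metallothionein or zinc genes and 1 noncoding RNA. The smallest adjusted p belonged to *Dnajb5* (-0.19, adjusted p = 0.12), *Slc39a14*, a zinc transporter (0.20, adjusted p = 0.0563), and *Neat1* (-0.53, adjusted p = 0.189). Housekeeping genes did not pass: *Actb* averaged 31.3 ± 3.59 CPM after corticosterone against 33.1 ± 2.29 CPM after saline and *Hprt* 26.5 ± 1.85 CPM after corticosterone against 25.5 ± 1.98 CPM after saline.

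Setting NeuN+ nuclei beside the other sorted populations of the same tissue showed where the neuronal response differed. Effects of corticosterone were estimated in 1 fit of 32 libraries over 18499 genes, and the difference of effects, NeuN+ minus the other population, was tested. The effect was higher in NeuN+ than in GFAP+ nuclei for 15 genes and lower for 80 (0.0811% and 0.432% of genes tested). It was higher than in PU.1+ nuclei for 86 and lower for 198 (0.465% and 1.07%), and higher than in 3X- nuclei for 101 and lower for 268 (0.546% and 1.45%). The study sorted the populations from the same mice in series, but the labels do not say which libraries share a mouse. With 1 term for each treatment and replicate number, 25 genes had a higher and 102 a lower effect in NeuN+ than in GFAP+ nuclei. Single libraries moved the higher counts. That against GFAP+ nuclei was 7 without NeuN+ corticosterone replicate 1, 8 without NeuN+ saline replicate 2 or GFAP+ corticosterone replicate 2, and 9 without NeuN+ corticosterone replicate 4, GFAP+ saline replicate 4 or GFAP+ corticosterone replicate 4. That against PU.1+ nuclei was 54 without PU.1+ saline replicate 1 and 52 without PU.1+ corticosterone replicate 2, and that against 3X- nuclei was 59 without 3X- corticosterone replicate 2. The 3X- libraries held inhibitory neuron markers at 3816 to 4646 CPM in sum, above the 2112 to 2350 CPM of NeuN+ libraries, and the part of these cells in the differences was not tested.

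Among the 160 genes that rose in neurons, 32 also rose in GFAP+ nuclei (20%, against 1.94% of all genes), 35 in PU.1+ nuclei (21.9%, against 3.15%) and 41 in 3X- nuclei (25.6%, against 4.98%). Among the 101 that fell, 15 fell in GFAP+ (14.9%, against 1.1%), 12 in PU.1+ (11.9%, against 2.46%) and 12 in 3X- nuclei (11.9%, against 2.89%). Taking the calls of the 8 NeuN+ libraries together with those of each other population, a rise in all 4 was found for 7 genes, *Ehd3*, *Fam107a*, *Fkbp5*, *Irs2*, *Klf9*, *Wipf3* and *Zbtb16*, and a fall in all 4 for *Cxxc5*, *Midn* and *Nr3c1*. *Nr3c1* changed by -0.36 in NeuN+, -0.37 in GFAP+, -0.38 in PU.1+ and -0.45 in 3X- nuclei on the log2 scale, and *Wipf3* by 0.56, 0.55, 0.59 and 0.57 in the same order. No difference of effects was called for either. For 88 of the 160 no rise was called in any other population, which is not a test of a difference.

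Several receptor targets responded less in neurons than in some of the other populations. The effect on *Fkbp5* was 0.55 in NeuN+ nuclei, against 2.05, 2.43 and 2.04 in GFAP+, PU.1+ and 3X- nuclei, a difference of -1.49 ± 0.25 (SE, adjusted p = 4.46e-04) to GFAP+ and -1.88 ± 0.23 (SE, adjusted p = 2.38e-07) to PU.1+. *Sgk1* was -0.08 in NeuN+ nuclei, and differed from PU.1+ by -0.99 ± 0.17 (SE, adjusted p = 1.77e-04) and from 3X- by -1.06 ± 0.17 (SE, adjusted p = 3.69e-05), though not by a called amount from GFAP+ (adjusted p = 0.233). *Errfi1* was 0.41 in NeuN+ against 1.94 in 3X- nuclei, a difference of -1.53 ± 0.14 (SE, adjusted p = 3.04e-10), and no difference to PU.1+ nuclei was called (adjusted p = 1). *Glul* differed from PU.1+ by -0.99 ± 0.18 (SE, adjusted p = 5.31e-04) and *Ddit4* by -3.11 ± 0.46 (SE, adjusted p = 1.21e-05), both rising in PU.1+ nuclei by 1.00 and 2.49. The effect on *Glul* showed no called difference to GFAP+ (adjusted p = 1) or 3X- nuclei (adjusted p = 0.915), nor did that on *Ddit4* to GFAP+ nuclei (adjusted p = 0.41). In NeuN+ nuclei *Ddit4* averaged only 9 counts after corticosterone and 14 after saline. No difference was called for *Mt1* (0.94 in NeuN+ against 0.83, 0.70 and 0.64 in GFAP+, PU.1+ and 3X- nuclei). The same held for *Tsc22d3* (1.06 against 0.90, 2.17 and 0.21), and both had few counts in neurons. *Per1* was -0.37 in NeuN+ nuclei, a fall not called in this fit (adjusted p = 0.608), and rose by 1.31 in PU.1+ nuclei, a difference of -1.68 ± 0.18 (SE, adjusted p = 8.03e-09). It differed by a called amount from 3X- nuclei as well (adjusted p = 0.0217) but not from GFAP+ nuclei (adjusted p = 0.7).

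Other genes responded more, or in the other direction, in neurons than in 1 or more of the other populations. *Acss1* was 0.73 in NeuN+ against -0.05 in GFAP+ nuclei, a difference of 0.78 ± 0.11 (SE, adjusted p = 2.22e-05). It differed from 3X- nuclei as well (0.55 ± 0.11, SE, adjusted p = 0.00228). In PU.1+ nuclei *Acss1* also rose (0.34, adjusted p = 4.52e-04), with no called difference to NeuN+ nuclei (adjusted p = 0.0607). *Pygb* differed from GFAP+ by 0.53 ± 0.10 (SE, adjusted p = 0.00218), though not by a called amount from PU.1+ or 3X- nuclei. *Cotl1* was 0.39 in NeuN+ against -1.26 in PU.1+ nuclei, and *Spsb1* 0.79 against -0.49, differences of 1.65 ± 0.12 (SE, adjusted p = 3.71e-13) and 1.29 ± 0.14 (SE, adjusted p = 1.27e-08). Both also rose in GFAP+ nuclei (*Cotl1* 0.68, *Spsb1* 1.22) and in 3X- nuclei (*Cotl1* 0.41, *Spsb1* 0.64), with no called difference to NeuN+ nuclei. *Hs3st1*, a heparan sulfate sulfotransferase, was 0.48 in NeuN+ against -0.79 in 3X- nuclei, and *Stmn4*, a stathmin of microtubules, 0.45 against -0.60. The effect on *Hs3st1* showed no called difference to GFAP+ or PU.1+ nuclei, and that on *Stmn4* none to PU.1+ nuclei. *Tle3*, a Groucho corepressor, fell in neurons (17.4, 16.9, 16.7 and 17.7 CPM in corticosterone nuclei, against 23.9, 22.8, 22.03 and 22.5 CPM in saline nuclei) and rose in GFAP+, PU.1+ and 3X- nuclei. Of the 101 fallen genes it alone had an effect called lower than in each of them, with differences of -0.71, -0.83 and -1.52 for GFAP+, PU.1+ and 3X- nuclei, with the largest adjusted p at 2.91e-04.

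**Figure D4:**
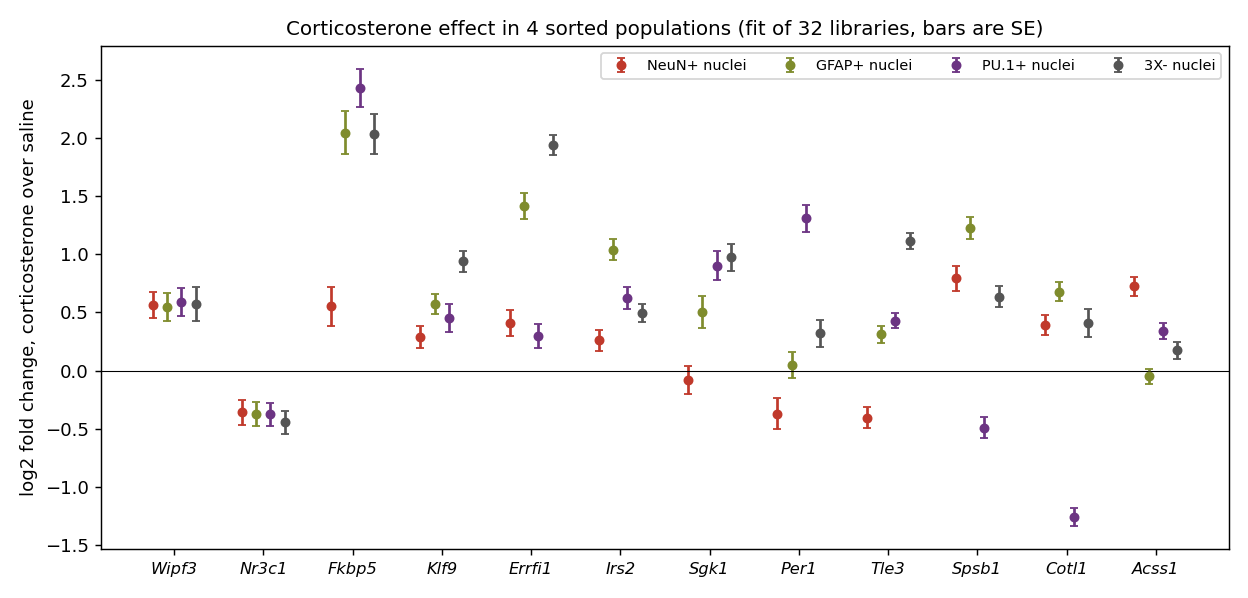
Log2 fold change of corticosterone over saline (vertical axis, bars are SE) for 12 genes in NeuN+ (red), GFAP+ (green), PU.1+ (purple) and 3X- (grey) nuclei, from 1 fit of 32 libraries. *Wipf3* and *Nr3c1* lie together in all populations, *Fkbp5* is lower in NeuN+ nuclei (0.55), and *Tle3* is below 0 in NeuN+ nuclei and above 0 in the others.

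Contextual fear conditioning (CFC), in which mice receive foot shocks in a chamber, was used in a separate experiment of the series, with 4 NeuN+ libraries 30 minutes after training and 4 of naive mice. These mice had the strain and age of the injected mice. The experiment shares no library with the corticosterone experiment, and its fit also held 4 libraries taken earlier after training. There 580 of 12422 genes rose (4.67%) and 483 fell (3.89%), against 370 and 287 without naive replicate 3, and 353 and 264 without CFC30 replicate 2. Of the 101 genes that fell after corticosterone, 28 rose after CFC (27.7%) and 3 fell (2.97%). Of the 160 that rose after corticosterone, 155 were tested after CFC, of which 26 rose (16.8%) and 8 fell (5.16%). Called genes had more counts over their bodies (median 74.1 CPM for risen and 48.3 CPM for fallen genes) than all tested genes (16.9 CPM), and the part of this in these shares was not tested.

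Opposite changes included *Cbfa2t3*, at -0.68 after corticosterone and 0.67 ± 0.11 (SE, adjusted p = 5.92e-04) after CFC, and *Foxo6*, at -0.56 and 0.66 ± 0.11 (SE, adjusted p = 0.00106). *Nr4a3* was at -0.52 after corticosterone and 0.67 ± 0.10 (SE, adjusted p = 5.53e-04) after CFC, *Midn* at -0.60 and 0.60 ± 0.15 (SE, adjusted p = 0.0187), and *Per1* at -0.37 and 0.42 ± 0.07 (SE, adjusted p = 5.64e-04). These genes were lower after the hormone than after a saline injection, and higher after training than in naive mice left in their home cages. The control groups thus differed in handling, and its part in the opposite signs was not tested. *Errfi1* (0.47 ± 0.07, adjusted p = 3.09e-04), *Il6ra* (0.51 ± 0.10, adjusted p = 0.00337), *Klf9* (0.23 ± 0.06, adjusted p = 0.0328) and *Irs2* (0.35 ± 0.08, adjusted p = 0.00639) rose in both, here with the change after CFC and its SE, and *Kcnj4* fell in both (-0.39 ± 0.08, adjusted p = 0.0033). *Fkbp5*, *Spsb1*, *Wipf3* and *Acss1* were not called after CFC. Early response genes had 16 of 32 called upward after CFC.

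**Figure D5:**
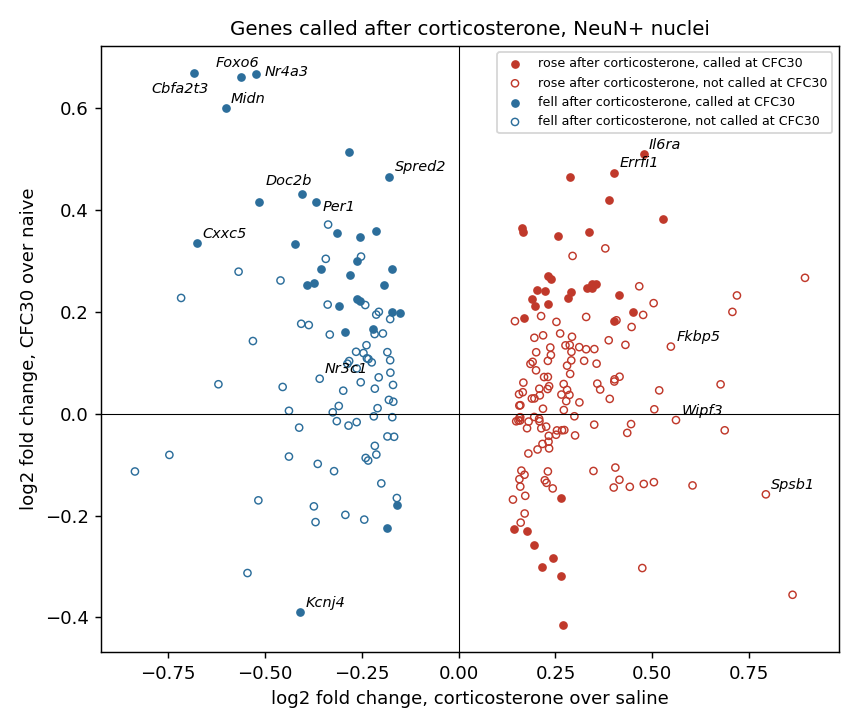
Log2 fold change after CFC over naive (vertical axis) against that of corticosterone over saline (horizontal axis) in NeuN+ nuclei, for 254 genes called after corticosterone. Red genes rose and blue genes fell after corticosterone, and filled points were called after CFC. *Cbfa2t3*, *Nr4a3*, *Foxo6* and *Midn* lie at the upper left, and *Errfi1* and *Il6ra* at the upper right.

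γH2AX is the phosphorylated histone that marks chromatin around DNA double-strand breaks. The copy of the hippocampal list analysed here holds 282 peaks, fewer than the study describes, joined from naive and trained mice without scores, and names 306 genes, of which 299 were tested here. The shares that follow are of this copy only. Of these, 11 rose (3.68%, against 1.26% of all genes) and 16 fell (5.35%, against 0.797%), with a median of -0.02. Genes on the list had a median of 48.3 CPM over their bodies, against 16.9 CPM for all genes, and the part of this was not tested. The peaks came from whole tissue of animals that were not injected with corticosterone, so they give no value for the treated neurons. *Wipf3* lies under a peak at chr6:54429701-54508207 that spans its whole body but the first bases (GRCm38), and *Arpc2*, *Klf9*, *Zbtb16*, *Per1*, *Nr1d1*, *Nrgn*, *Baiap2* and *Chrm1* are also among the called genes of the list.

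Others of them were *Sh3bp5*, an inhibitor of JNK (255 ± 16.6 CPM after corticosterone against 199.6 ± 11.1 CPM after saline, log2 change 0.35 ± 0.05, adjusted p = 1.82e-07), *Ip6k2*, an inositol hexakisphosphate kinase (83.9 ± 2.45 CPM after corticosterone against 62.6 ± 6.80 CPM after saline, log2 change 0.42 ± 0.06, adjusted p = 7.71e-07), and *Trim2*, a ubiquitin ligase of neurons (0.31), which rose. *Nfix*, a transcription factor of hippocampal development, fell (213 ± 5.03 CPM after corticosterone against 265 ± 11.5 CPM after saline, log2 change -0.31 ± 0.04, adjusted p = 5.36e-07), as did *Lmo4*, a LIM-domain cofactor (-0.37), *Olfm1* (-0.25) and *Zeb2*, a repressor (-0.16). *Ddit4*, *Glul* and *Sgk1*, also on the list, were not called.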

How the data were processed

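The corticosterone experiment held 32 libraries of sorted hippocampal nuclei, 8 of them NeuN+. According to the study's methods, the authors made total RNA libraries with a stranded kit, trimmed 3 nucleotides from read 2 with Trimmomatic, aligned with HISAT2, marked duplicates with Picard and assigned reads with featureCounts to whole gene bodies on GRCm38. The deposited values are raw counts, introns included. Tool versions, the annotation and the strand setting of counting are not given in the sources used here. Symbols, positions and gene lengths were taken from GENCODE vM21, which held 53682 of 53749 gene IDs. The γH2AX peak list carries positions and gene names without scores.

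From the counts, CPM was computed with TMM factors. Genes needed a mean FPKM over the gene body above 0.2 in at least 1 group. edgeR 4.0.16 (glmQLFit and glmQLFTest, R 4.3.3) tested corticosterone against saline, with Benjamini-Hochberg adjustment and a threshold of 0.05, and differences of effects between populations were contrasts in 1 fit. DESeq2 1.42.0, other scalings and filters, a replicate block and leaving out each library were the alternatives. The fit was tested on simulated data with 200 changed genes.

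Named genes were the 12 largest rises and the 12 largest falls with an adjusted p under the threshold, full separation of the libraries in CPM and 50 or more counts on average in whichever group was higher, the called members of each list (up to 4, or the smallest adjusted p where none was called), glucocorticoid controls, and 5 genes in each direction for each difference between populations. Members and gene lists were chosen with earlier results of these data known. Genes named outside this rule were chosen after their values were seen. No columns of unknown sample were present. Results for a few genes are not reported here.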

Additional observations from a re-analysis of the deposited data

Results flagged for a closer look

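The effect of corticosterone differed between NeuN+ nuclei and another population, by edgeR's quasi-likelihood test of the difference itself, in 30 results taken as the 5 with the smallest adjusted p in each direction. Values are the log2 effect in NeuN+ nuclei minus that in the other population. A difference does not by itself mean a change in NeuN+ nuclei. Against GFAP+ nuclei the effect was higher in NeuN+ nuclei for *Acss1* (0.78), *Pygb* (0.53), *Ugp2* (0.78), *Mir9-3hg* (0.55) and *Phyhipl* (0.53). In NeuN+ nuclei no change was called in *Ugp2* (-0.06), *Mir9-3hg* (-0.007) or *Phyhipl* (0.001). These genes fell in GFAP+ nuclei (-0.85, -0.56 and -0.52). *Acss1* makes acetyl-CoA, *Pygb* breaks down glycogen and *Ugp2* makes the sugar donor for glycogen. The effect in NeuN+ nuclei was lower for *Azin1* (-1.18), *Bcl2l1* (-1.21), *Nrros* (-1.94), *Dzip1l* (-1.08) and *Fam117b* (-0.83), among them *Azin1*, an activator of polyamine synthesis, and *Bcl2l1*, an inhibitor of apoptosis.

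Against PU.1+ nuclei it was higher for *Cotl1* (1.65), *Spsb1* (1.29), *Basp1* (0.97), *Rab11fip5* (0.77) and *Nuak1* (0.86), and lower for *Ugcg* (-1.44), *Osbpl11* (-1.42), *Mlxip* (-1.21), *Dirc2* (-1.16) and *Mras* (-1.31). *Cotl1* binds actin and *Basp1* is a growth cone protein, while *Ugcg* makes glucosylceramide and *Mlxip* is a sugar-sensing transcription factor. Against 3X- nuclei it was higher for *Hs3st1* (1.26), *Stmn4* (1.05), *Tmcc2* (0.86), *Phyhipl* (0.85) and *Rtn4* (0.74), and lower for *Pdxk* (-2.23), *Tle3* (-1.52), *Actn1* (-1.64), *Znfx1* (-1.87) and *Pdgfa* (-1.87). *Stmn4* acts on microtubules, *Rtn4* encodes Nogo, *Pdxk* makes the active form of vitamin B6 and *Pdgfa* is a growth factor for oligodendrocyte precursors. In NeuN+ nuclei no change was called in *Basp1* (-0.13), *Rab11fip5* (0.11), *Nuak1* (0.06), *Tmcc2* (0.11), *Phyhipl* (0.001) or *Rtn4* (0.02). *Basp1*, *Rab11fip5* and *Nuak1* fell in PU.1+ nuclei (-1.10, -0.66 and -0.80), and the others in 3X- nuclei (-0.75, -0.85 and -0.71).

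In 7 of 126 groups of 4 libraries 1 library lay far from the rest, where chance gives about 1 in 20. The gap of that library to its neighbour, over the range of its group, was 0.878 for *Cxxc5* (20.6 CPM in corticosterone replicate 4), 0.854 for *Per1* (23.0 CPM in corticosterone replicate 2), 0.901 for *Chrm1* (79.4 CPM in corticosterone replicate 2), 0.844 for *Tenm1* (343 CPM in corticosterone replicate 1), 0.888 for *Fam107a* (7.47 CPM in saline replicate 1), and 0.99 and 0.874 for *Hprt* (29.3 CPM in corticosterone replicate 1 and 28.4 CPM in saline replicate 1).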

How the results depend on the processing

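Of the genes called in NeuN+ nuclei, 118 risen and 44 fallen were called by DESeq2 as well, and 85 risen and 36 fallen whichever library was left out. The count of fallen genes was 44 with DESeq2, 161 with the replicate block and 157 at an adjusted p under 0.1, and the fit of 32 libraries gave 36 risen and 11 fallen. Corticosterone and saline NeuN+ libraries of the same number had correlations of deviations of -0.0344 to 0.141. Between NeuN+ nuclei and the other populations the correlations were -0.0246 to 0.137. These values cannot show whether the numbers pair the samples. The replicate block took no call from a named gene, gave 235 risen genes and added calls of *Slc39a14* (adjusted p = 0.0303), *Dnajb5* (0.0369), *Tenm1* (0.0353) and *Fdft1* (0.0241). Leaving out 1 library gave 117 to 199 risen and 58 to 130 fallen.

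The count of genes with a higher effect in NeuN+ than in GFAP+ nuclei was 25 with the replicate block, and 23 with no filter on level or with only the 2 populations. Against 3X- nuclei, no filter gave 175 higher and 492 lower, and only the 2 populations 547 lower. Within 3X- nuclei no filter gave 2453 risen and 1024 fallen, and within GFAP+ nuclei a fit of that population alone gave 130 fallen. Without 1 library, the differences gave 7 to 22 higher and 56 to 111 lower against GFAP+, 52 to 92 and 158 to 213 against PU.1+, and 59 to 142 and 200 to 351 against 3X- nuclei. The own effects gave 278 to 385 risen and 104 to 222 fallen in GFAP+, 495 to 677 and 291 to 472 in PU.1+, and 698 to 979 and 369 to 615 in 3X- nuclei. After CFC the counts were 353 to 660 risen and 264 to 588 fallen, both lowest without CFC30 replicate 2. The alternatives for the effects within GFAP+, PU.1+ and 3X- nuclei were chosen after seeing the data. No named result changed direction.

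The causes of these shifts were not tested. The 8 libraries held 7184428 to 10013376 counts each, and the smallest called change was 0.14 on the log2 scale. *Tsc22d3* was below the level filter. Whether saline held the carrier of the hormone and how strand was counted are not stated.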

Other observations

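Other gene groups, put together after their values were seen and so without a test of the group, ran in 1 direction by choice. Among inhibitors of signalling, 7 genes rose, with changes of 0.30 to 0.86 on the log2 scale. *Bambi*, a decoy receptor for TGF-beta family signals, averaged 4.49 ± 0.951 CPM after corticosterone against 2.53 ± 0.690 CPM after saline (SD, n = 4 each, edgeR adjusted p = 0.00910), and *Frzb*, a secreted Wnt antagonist, 9.10 ± 1.2 CPM against 5.95 ± 1.36 CPM (adjusted p = 0.00813). The groups overlapped in both.

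Among transcriptional repressors and corepressors, 9 genes fell, with changes of -0.68 to -0.15. Beside *Cbfa2t3*, *Tle3* and *Nr3c1*, the last of which also activates genes, these included *Zfpm1*, a partner of GATA factors (26.3 ± 1.58 CPM after corticosterone against 34.6 ± 2.65 CPM after saline, edgeR adjusted p = 2.49e-04), *Bcor* (24.3 ± 2.23 against 29.7 ± 2.75 CPM, adjusted p = 0.0338), and *Erf*, an ETS repressor (6.43 ± 1.08 against 9.39 ± 1.46 CPM, adjusted p = 0.0235). The groups overlapped in *Bcor* and *Erf*. *Zfpm1* and *Bcor* rose after CFC, by 0.25 (adjusted p = 0.0390) and 0.27 (adjusted p = 0.0220).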
